A study of Mus musculus with 37 samples.

Results

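Transcripts of the core circadian clock were examined in the livers of Nox4 knockout (KO) and wild-type (WT) mice after partial hepatectomy, the surgical removal of part of the liver, or a sham operation. Although earlier results of these data were known, the 10 genes were chosen by name and not by a rule on their values. They are Arntl, Clock, Npas2, Per1, Per2, Per3, Cry1, Cry2, Nr1d1 and Nr1d2, and all 10 were found among the 55487 genes of the table and passed the filter on low counts that left 15564 genes for testing.

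The circadian clock is a transcriptional feedback loop that runs in nearly every cell, hepatocytes included. ARNTL (also called BMAL1) pairs with CLOCK or its paralog NPAS2, binds E-box sequences and switches on the Per, Cry and Nr1d genes. The PER and CRY proteins then block that pair, while NR1D1 and NR1D2 (REV-ERB alpha and beta) repress Arntl through ROR elements. In a liver kept on a light and feeding cycle the levels of these transcripts therefore depend on the hour of sampling, with Arntl and Npas2 high when Nr1d1 and Dbp are low.

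The 37 libraries came from 19 KO and 18 WT livers. In the KO, 5 livers were sham-operated, and hepatectomy was sampled at 6 h (3 livers), 24 h (4), 48 h (4) and 7 d (3). In the WT, 5 were sham-operated and hepatectomy gave 3 livers at 6 h, 3 at 24 h, 4 at 48 h and 3 at 7 d. The sham livers of a genotype form 1 group although they were taken at mixed times, which for KO replicates 1 to 5 were 24 h, 48 h, 48 h, 72 h and 6 h, and for WT replicates 1 to 5 were 7 d, 48 h, 24 h, 48 h and 6 h. The labels give the KO as NOX4-/- with no further description of the allele, and no strain, age or hour of the day. Time after the operation and hour of the day therefore cannot be told apart, and the 6 h sham livers are shown apart from the other sham livers throughout. Every 6 h library, sham or hepatectomy, was from a male, while both sexes are present in each of the remaining groups. Replicates are separate samples in the labels, which name no animals, so p-values measure the spread between these libraries.

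Total counts ranged from 26232544 to 48827025 per library. Nox4, which encodes an NADPH oxidase that makes hydrogen peroxide, had 0 to 4.98 CPM (counts scaled to a common library size, with TMM factors) in KO livers and 0.778 to 23.5 CPM in WT livers. Averaged over the stages it was lower in the KO by 2.82 on the log2 scale (log2 fold change -2.82, SE 0.284, edgeR adjusted p = 4.27e-08), although the ranges overlapped. At 24 h, KO replicate 1 stood at -26.8 on the first principal component of all genes (26.1% of the variance), against 90.6 to 122 in the other KO livers of that time. At 24 h, WT replicate 3 had the highest mitochondrial share of all libraries, 8.93% against a median of 5.28%. Hepatocyte markers were abundant everywhere, with the sum of 6 genes between 40370 CPM, in WT 24 h replicate 3, and 144326 CPM. Changes below are log2 fold changes from edgeR's quasi-likelihood test over all 37 libraries with sex as a covariate, called at a Benjamini-Hochberg adjusted p under 0.05 over all 15564 genes.

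Promoter sequences from RefSeq (GRCm38.p6), 250 bases before to 50 bases after the annotated start, were held for 9 of the 10 genes. They were searched on both strands for the E-box CACGTG, the ROR element TAGGTCA, the D-boxes TTATGTAA and TTACGTAA, and the cAMP response element TGACGTCA. Matches were found for 4 genes, and these promoters are shown because each of the 4 genes changed in at least 1 comparison below. Capitals mark the matches.
Arntl, promoter 2, chr7:113207261-113207560, plus strand: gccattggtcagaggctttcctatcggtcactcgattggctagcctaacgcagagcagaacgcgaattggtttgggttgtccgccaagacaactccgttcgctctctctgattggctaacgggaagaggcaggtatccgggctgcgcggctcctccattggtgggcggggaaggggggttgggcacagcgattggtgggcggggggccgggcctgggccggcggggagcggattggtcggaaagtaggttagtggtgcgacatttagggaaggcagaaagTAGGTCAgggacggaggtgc
Per1, promoter 1, chr11:69098699-69098998, plus strand: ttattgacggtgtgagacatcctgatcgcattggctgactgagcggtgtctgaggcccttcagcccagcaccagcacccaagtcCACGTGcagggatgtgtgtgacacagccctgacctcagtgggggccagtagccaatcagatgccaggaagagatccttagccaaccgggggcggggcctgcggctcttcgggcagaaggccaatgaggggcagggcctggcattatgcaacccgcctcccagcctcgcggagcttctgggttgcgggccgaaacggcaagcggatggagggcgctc
Per3, chr4:151044616-151044915, minus strand: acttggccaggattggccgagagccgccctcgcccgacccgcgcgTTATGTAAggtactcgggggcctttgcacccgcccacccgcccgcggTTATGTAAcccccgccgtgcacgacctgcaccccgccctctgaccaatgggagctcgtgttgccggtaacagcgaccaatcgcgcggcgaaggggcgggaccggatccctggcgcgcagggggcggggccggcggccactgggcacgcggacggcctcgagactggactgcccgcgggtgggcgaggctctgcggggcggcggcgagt
Cry1, chr10:85185005-85185304, minus strand: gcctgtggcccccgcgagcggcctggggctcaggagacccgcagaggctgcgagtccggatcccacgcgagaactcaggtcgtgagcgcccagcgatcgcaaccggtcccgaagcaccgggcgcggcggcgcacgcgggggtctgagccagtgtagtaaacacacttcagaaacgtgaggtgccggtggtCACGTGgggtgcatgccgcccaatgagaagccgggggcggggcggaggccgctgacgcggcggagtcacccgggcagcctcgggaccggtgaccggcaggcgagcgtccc
Counting the annotated start as position 0, the ROR element of Arntl began at position 30, the E-boxes of Per1 and Cry1 at -166 and -60, and the pair of D-boxes of Per3 at -205 and -158. The other promoter held for Arntl and the other one for Per1 had no match, and no cAMP response element was found in any of them. Among all 32851 promoters of the table, 7.15% held this E-box, 2.61% the ROR element, 1.06% a D-box and 1.79% the cAMP response element. D-boxes are bound by DBP, TEF and HLF, whose transcripts are described further on.

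Arntl encodes the partner that every activator complex of the clock needs (GRCm38, chromosome 7, 113207465 to 113314126, plus strand). Its highest levels came at 24 h in KO livers and at 48 h in WT livers. At 24 h it was 11.6, 4.90, 6.70 and 10.7 CPM in KO hepatectomy livers. KO sham livers had 3.49, 2.64, 2.99 and 1.72 CPM at 24 to 72 h and 2.47 CPM at 6 h. Every KO liver at 24 h lay above every KO sham liver, and Arntl rose by 1.77 (SE 0.593, adjusted p = 0.0257). At 48 h the KO livers had 0.433, 0.474, 0.723 and 1.34 CPM, below every KO sham liver, with a change of -1.84 (SE 0.637) that did not pass (adjusted p = 0.126 by edgeR, 0.0476 by DESeq2).

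WT livers at 48 h had Arntl levels of 11.6, 5.78, 5.61 and 8.45 CPM. WT sham livers had 1.04, 0.489, 0.622 and 0.848 CPM at 24 h to 7 d, and 5.70 CPM at 6 h. The WT 48 h livers lay above the 4 sham livers of other times, and 1 of them lay below the 6 h sham liver. Arntl rose by 2.24 in WT livers at 48 h (SE 0.599, adjusted p = 0.0171). At 24 h the WT livers had 2.69, 3.28 and 5.19 CPM, a change of 1.13 (SE 0.631) against WT sham that did not pass (adjusted p = 0.397).

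Between the genotypes, Arntl at 48 h was lower in the KO by 3.38 on the log2 scale (log2 fold change -3.38, SE 0.685, adjusted p = 0.0151), and the KO and WT livers did not overlap. At 24 h the KO to WT difference was 1.34 (SE 0.697, adjusted p = 0.168) and overlapped. Without KO replicate 1, 2 or 3 at 48 h in turn, the 48 h difference kept its sign and lost its call, with adjusted p up to 0.114. The 24 h rise in the KO lost its call without KO 24 h replicate 1 (log2 fold change 1.51, adjusted p = 0.0542), without KO 24 h replicate 4 and without KO sham replicate 4, with adjusted p up to 0.0827. The WT rise at 48 h lost its call without WT sham replicate 1, 2 or 3 in turn (adjusted p up to 0.0559).

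Arntl levels at 6 h and 7 d complete the series. At 6 h after hepatectomy KO livers had 0.504, 3.89 and 0.250 CPM and WT livers 4.18, 3.54 and 2.68 CPM. The KO livers split, with replicate 2 inside the WT range and the others far below it, and the KO to WT difference of -1.12 (SE 0.735) did not pass (adjusted p = 0.610). Leaving out KO 6 h replicate 2 brought it to -3.17 (adjusted p = 0.0499). At 7 d KO livers had 1.07, 0.417 and 0.671 CPM and WT livers 0.238, 0.486 and 1.12 CPM, overlapping ranges. Reads of Arntl and of Gm45355 on the opposite strand share 33 of the 7523 exon bases of Arntl (0.439%), which matters only if strand was not used in counting.

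**Figure D1:**
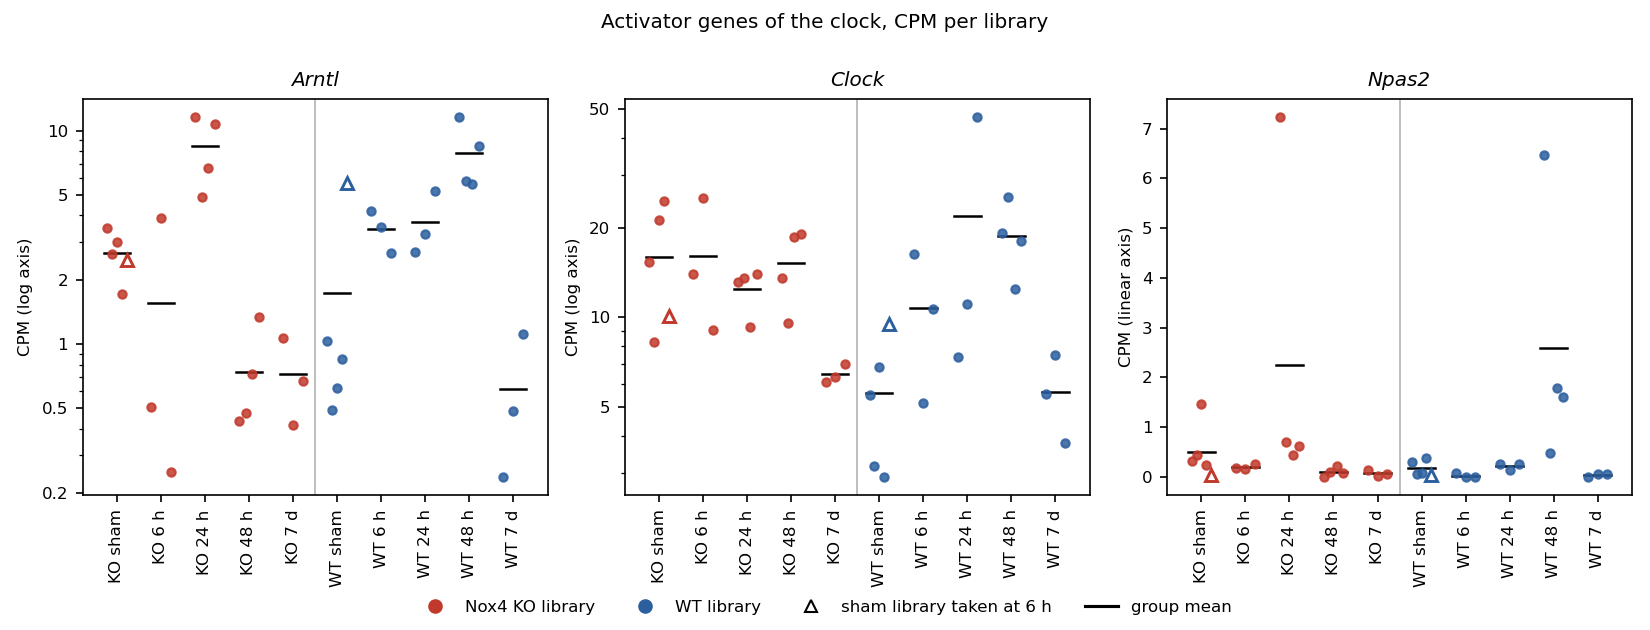
CPM of Arntl, Clock and Npas2 in each library (log axis for Arntl and Clock, linear for Npas2), by genotype and time after the operation. Circles are livers, triangles the 6 h sham livers, and lines the group means. Arntl is high in the KO at 24 h (4.90 to 11.6 CPM) and in the WT at 48 h (5.61 to 11.6 CPM).

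Npas2, which can take the place of CLOCK in the activator pair (GRCm38, chromosome 1, 39193731 to 39363236, plus strand), had few reads in most libraries. At 24 h KO livers had 7.24, 0.709, 0.444 and 0.627 CPM and WT livers 0.264, 0.139 and 0.254 CPM. At 48 h KO livers had 0, 0.0998, 0.207 and 0.0818 CPM, which are 0, 4, 6 and 3 counts, and WT livers 6.47, 0.470, 1.78 and 1.61 CPM, which are 198, 24, 75 and 88 counts. The KO was higher at 24 h and lower at 48 h, with no overlap at either time. Its log2 difference between KO and WT was 3.17 at 24 h (SE 1.11, adjusted p = 0.0441) and -4.72 at 48 h (SE 1.05, adjusted p = 0.0332). In WT livers at 48 h it rose by 4.02 against WT sham (SE 0.923, adjusted p = 0.00620).

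KO 24 h replicate 1 and WT 48 h replicate 1 stood far above the other libraries of their groups. Without KO 24 h replicate 1 the KO to WT difference at 24 h was 1.44 (adjusted p = 0.246), and it also lost its call without any WT 24 h library or KO 24 h replicate 4, without the count filter and in a fit of the compared groups alone (adjusted p up to 0.354). The 48 h difference between KO and WT lost its call without any KO 48 h library or WT 48 h replicate 1 or 3, at adjusted p up to 0.159 and log2 fold changes of -5.36 to -3.55. The WT rise at 48 h kept its call whichever library was left out, at 2.94 to 4.57, but not in a fit of the compared groups alone (adjusted p = 0.0563). Sham livers held 0.0347 to 1.47 CPM of Npas2 in the KO and 0.0339 to 0.373 CPM in the WT, and both 6 h sham livers had 1 count.

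Clock encodes the usual partner of ARNTL (GRCm38, chromosome 5, 76209868 to 76304792, minus strand), and its transcript is known for a flatter daily course than that of Arntl. In WT livers at 48 h Clock was at 19.2, 25.4, 12.5 and 18.1 CPM. WT sham livers had 5.50, 3.17, 6.82, 2.92 and, at 6 h, 9.53 CPM. All WT livers at 48 h lay above all WT sham livers, and the rise of 1.76 (SE 0.433, adjusted p = 0.00979) kept its call whichever library was left out. KO livers at 48 h, with 13.6, 9.56, 18.6 and 19.0 CPM, overlapped KO sham livers at 15.4, 8.25, 21.3, 24.6 and, at 6 h, 10.1 CPM.

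At 24 h Clock was 13.1, 13.5, 9.32 and 14.0 CPM in KO livers and 7.37, 11.1 and 47.3 CPM in WT livers. WT replicate 3 had the highest mitochondrial share and the lowest hepatocyte marker sum (40370 CPM) of all 37 libraries. It also held the highest Clock level of all 37. The part of that share and of that sum in the Clock level was not tested. Clock rose in WT livers at 24 h by 1.92 against WT sham (SE 0.464, adjusted p = 0.0388), and without replicate 3 the change was 0.75 (adjusted p = 0.882). The call was also lost without WT sham replicate 1, 2 or 4, in a fit without the count filter and in a fit of the compared groups alone. At 7 d KO livers had 6.08, 6.31 and 7.00 CPM and WT livers 5.53, 7.50 and 3.80 CPM.

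The Per genes, whose proteins carry the delayed repression of the loop, did not move together. Per1, which is also induced directly by glucocorticoid and cAMP signals (GRCm38, chromosome 11, 69095217 to 69109960, plus strand), was highest in KO livers at 24 h, with 24.4, 90.0, 168 and 143 CPM. KO sham livers had 32.1, 22.2, 22.3 and 19.1 CPM, and 43.5 CPM at 6 h. KO replicate 1 lay within the sham range, and the other KO livers at 24 h lay above every other library of the series. Per1 rose by 1.94 in the KO at 24 h (SE 0.486, adjusted p = 0.00406), and this call held whichever library was left out, at 1.61 to 2.26.

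WT livers at 24 h had 19.4, 41.2 and 16.5 CPM of Per1, and WT sham livers 18.3, 49.5, 17.8, 26.0 and, at 6 h, 69.2 CPM. The groups overlapped, and WT 24 h replicate 3 lay just below the lowest sham liver. The KO to WT difference in Per1 at 24 h was 2.04 (SE 0.585, adjusted p = 0.0173). It was 2.38 without KO 24 h replicate 1 (adjusted p = 0.00156), and the call was lost without WT 24 h replicate 1 or 3 or KO 24 h replicate 3 or 4, at adjusted p up to 0.0834, and in a fit of the compared groups alone (adjusted p = 0.274). At 6 h after hepatectomy Per1 was at 66.0, 42.2 and 52.7 CPM in KO livers and 54.1, 65.7 and 62.4 CPM in WT livers. The 6 h sham livers, at 43.5 CPM in the KO and 69.2 CPM in the WT, lay within the KO range and above the WT range. At 48 h KO livers had 18.9 to 42.1 CPM and WT livers 3.26 to 33.2 CPM, and at 7 d KO livers had 24.6 to 39.8 CPM and WT livers 19.9 to 37.3 CPM.

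Per3, a member of the family that is dispensable for rhythm in mice (GRCm38, chromosome 4, 151003652 to 151044665, minus strand), had its lowest group mean in KO livers at 24 h, with 0.422, 0.945, 0.577 and 0.585 CPM. KO sham livers had 1.96, 5.67, 3.76 and 11.0 CPM, and 2.47 CPM at 6 h. The KO livers at 24 h lay below all KO sham livers, and Per3 fell by 2.97 on the log2 scale (log2 fold change -2.97, SE 0.566, adjusted p = 0.000392), a call that held whichever library was left out. WT livers at 24 h had 5.55, 2.92 and 1.83 CPM. The KO to WT difference in Per3 was -2.46 (SE 0.599, adjusted p = 0.00715), without overlap, and it lost its call without WT 24 h replicate 1 (-1.83, adjusted p = 0.0567) and in a fit of the compared groups alone (adjusted p = 0.266).

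At 6 h after hepatectomy Per3 was at 1.18, 1.17 and 1.65 CPM in KO livers and 1.11, 1.19 and 0.731 CPM in WT livers. WT sham livers had 13.4, 14.3, 20.1 and 7.53 CPM, and 2.61 CPM at 6 h. Per3 fell in WT livers at 6 h by 3.33 on the log2 scale (log2 fold change -3.33, SE 0.655, adjusted p = 0.00350). Without WT 6 h replicate 3 the adjusted p was 0.0544, and in a fit of the compared groups alone it was 0.125. In KO livers at 6 h the change of -1.81 (SE 0.596) missed the threshold (adjusted p = 0.0595 by edgeR, 0.0168 by DESeq2), and it was -2.04 when the 6 h sham livers were left out (adjusted p = 0.0170). At 48 h the genotypes were apart again, with 10.4, 12.8, 7.23 and 11.1 CPM in KO livers and 0.523, 4.31, 3.38 and 4.32 CPM in WT livers. They did not overlap, and the difference of 1.81 (SE 0.533) had an adjusted p of 0.146 by edgeR and 0.0381 by DESeq2. Per3 fell in WT livers at 48 h by 1.85 on the log2 scale against WT sham (log2 fold change -1.85, SE 0.510, adjusted p = 0.0212), and without WT sham replicate 1 or 3 or WT 48 h replicate 1 or 3 the adjusted p was up to 0.0597. In a fit of the compared groups alone it was 0.145. At 7 d Per3 stood at 13.4 to 21.9 CPM in KO livers and 9.35 to 20.9 CPM in WT livers.

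Per2, a family member that a stable rhythm needs in mice (GRCm38, chromosome 1, 91415982 to 91459324, minus strand), had 8.69, 11.3, 9.60 and 18.1 CPM in KO livers at 48 h and 1.63, 5.54, 8.54 and 3.19 CPM in WT livers. The groups did not overlap, by a margin of 8.69 to 8.54 CPM, and the KO to WT difference of 1.41 (SE 0.424) had an adjusted p of 0.155 by edgeR and 0.0359 by DESeq2. WT sham livers had 12.3, 16.0, 19.8, 8.04 and, at 6 h, 18.0 CPM. Per2 fell in WT livers at 48 h by 1.68 on the log2 scale (log2 fold change -1.68, SE 0.407, adjusted p = 0.00884), whichever library was left out. KO sham livers had 9.53, 3.19, 8.82, 9.20 and, at 6 h, 10.5 CPM. At 6 h after hepatectomy KO livers lay above all of them at 25.5, 15.9 and 16.6 CPM, with a change of 1.29 (SE 0.417) that missed the threshold (adjusted p = 0.0557 by edgeR, 0.0360 by DESeq2). Per2 at 24 h was 4.18, 16.1, 17.0 and 12.3 CPM in KO livers and 5.28, 8.81 and 4.45 CPM in WT livers.

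The cryptochromes Cry1 and Cry2 encode the proteins that block the activator pair most directly. Cry1 (GRCm38, chromosome 10, 85131700 to 85185064, minus strand) was at 9.14, 17.0, 11.9 and 16.4 CPM in KO livers at 24 h, and at 3.57, 4.64 and 4.76 CPM in WT livers. KO sham livers had 7.14, 2.21, 5.04 and 2.88 CPM, and 8.82 CPM at 6 h. The KO livers at 24 h lay above both other groups, by little over the 6 h sham liver. Cry1 rose by 1.43 against KO sham (SE 0.445, adjusted p = 0.0167), and the difference between KO and WT livers was 1.68 (SE 0.530, adjusted p = 0.0272). The rise lost its call without KO sham replicate 4 or KO 24 h replicate 4 (adjusted p up to 0.0633). The KO to WT difference lost its call without any WT 24 h library or KO 24 h replicate 2 or 4, at adjusted p up to 0.0974, and in a fit of the compared groups alone (adjusted p = 0.266).

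Cry2 (GRCm38, chromosome 2, 92403646 to 92434043, minus strand) was at 9.01, 12.2, 18.0 and 16.0 CPM in WT livers at 48 h, all below WT sham livers at 41.1, 36.8, 27.4, 21.9 and, at 6 h, 35.8 CPM. It fell by 1.23 on the log2 scale (log2 fold change -1.23, SE 0.327, adjusted p = 0.0164), and without WT 48 h replicate 1 the adjusted p was 0.0659. KO livers at 48 h, at 18.2 to 24.6 CPM, overlapped KO sham livers at 8.20 to 24.1 CPM. At 24 h Cry2 was at 11.8, 30.8, 40.2 and 35.5 CPM in KO livers and 28.6, 18.9 and 11.1 CPM in WT livers. Exons of Cry2 share 295 bases (4.67% of its exon bases) with D930015M05Rik on the opposite strand.

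Nr1d1 and Nr1d2 encode the nuclear receptors that repress Arntl. Nr1d1 (GRCm38, chromosome 11, 98767932 to 98775333, minus strand) was at 10.8, 14.7, 43.4 and 32.3 CPM in KO livers at 24 h. KO sham livers had 108, 113, 59.9 and 70.8 CPM, and 33.4 CPM at 6 h. The KO livers at 24 h lay below the 4 sham livers of other times and on both sides of the 6 h one. Nr1d1 fell by 1.61 on the log2 scale (log2 fold change -1.61, SE 0.559, adjusted p = 0.0302). That call was lost without KO sham replicate 1 or 2 or KO 24 h replicate 1 or 2 (adjusted p up to 0.100), without the count filter and in a fit of the compared groups alone. WT livers at 24 h had 102, 57.4 and 24.9 CPM, and WT sham livers 148, 41.3, 64.3, 74.6 and, at 6 h, 14.8 CPM.

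At 48 h Nr1d1 was at 62.3, 45.7, 75.0 and 12.8 CPM in KO livers and 13.8, 44.6, 14.5 and 80.4 CPM in WT livers, overlapping ranges with a difference of 0.23 (SE 0.574, adjusted p = 0.914). At 7 d it was at 17.5 to 22.2 CPM in KO livers and 19.4 to 24.6 CPM in WT livers. Exons of Nr1d1 share 263 of 3077 bases (8.55%) with Thra on the opposite strand, so its count is less certain if strand was not used. Nr1d2 (GRCm38, chromosome 14, 18204054 to 18239127, minus strand) passed in no comparison. It ranged over 1.90 to 68.3 CPM in KO livers and 3.30 to 56.2 CPM in WT livers, with the lowest value in KO replicate 1 at 24 h.

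**Figure D2:**
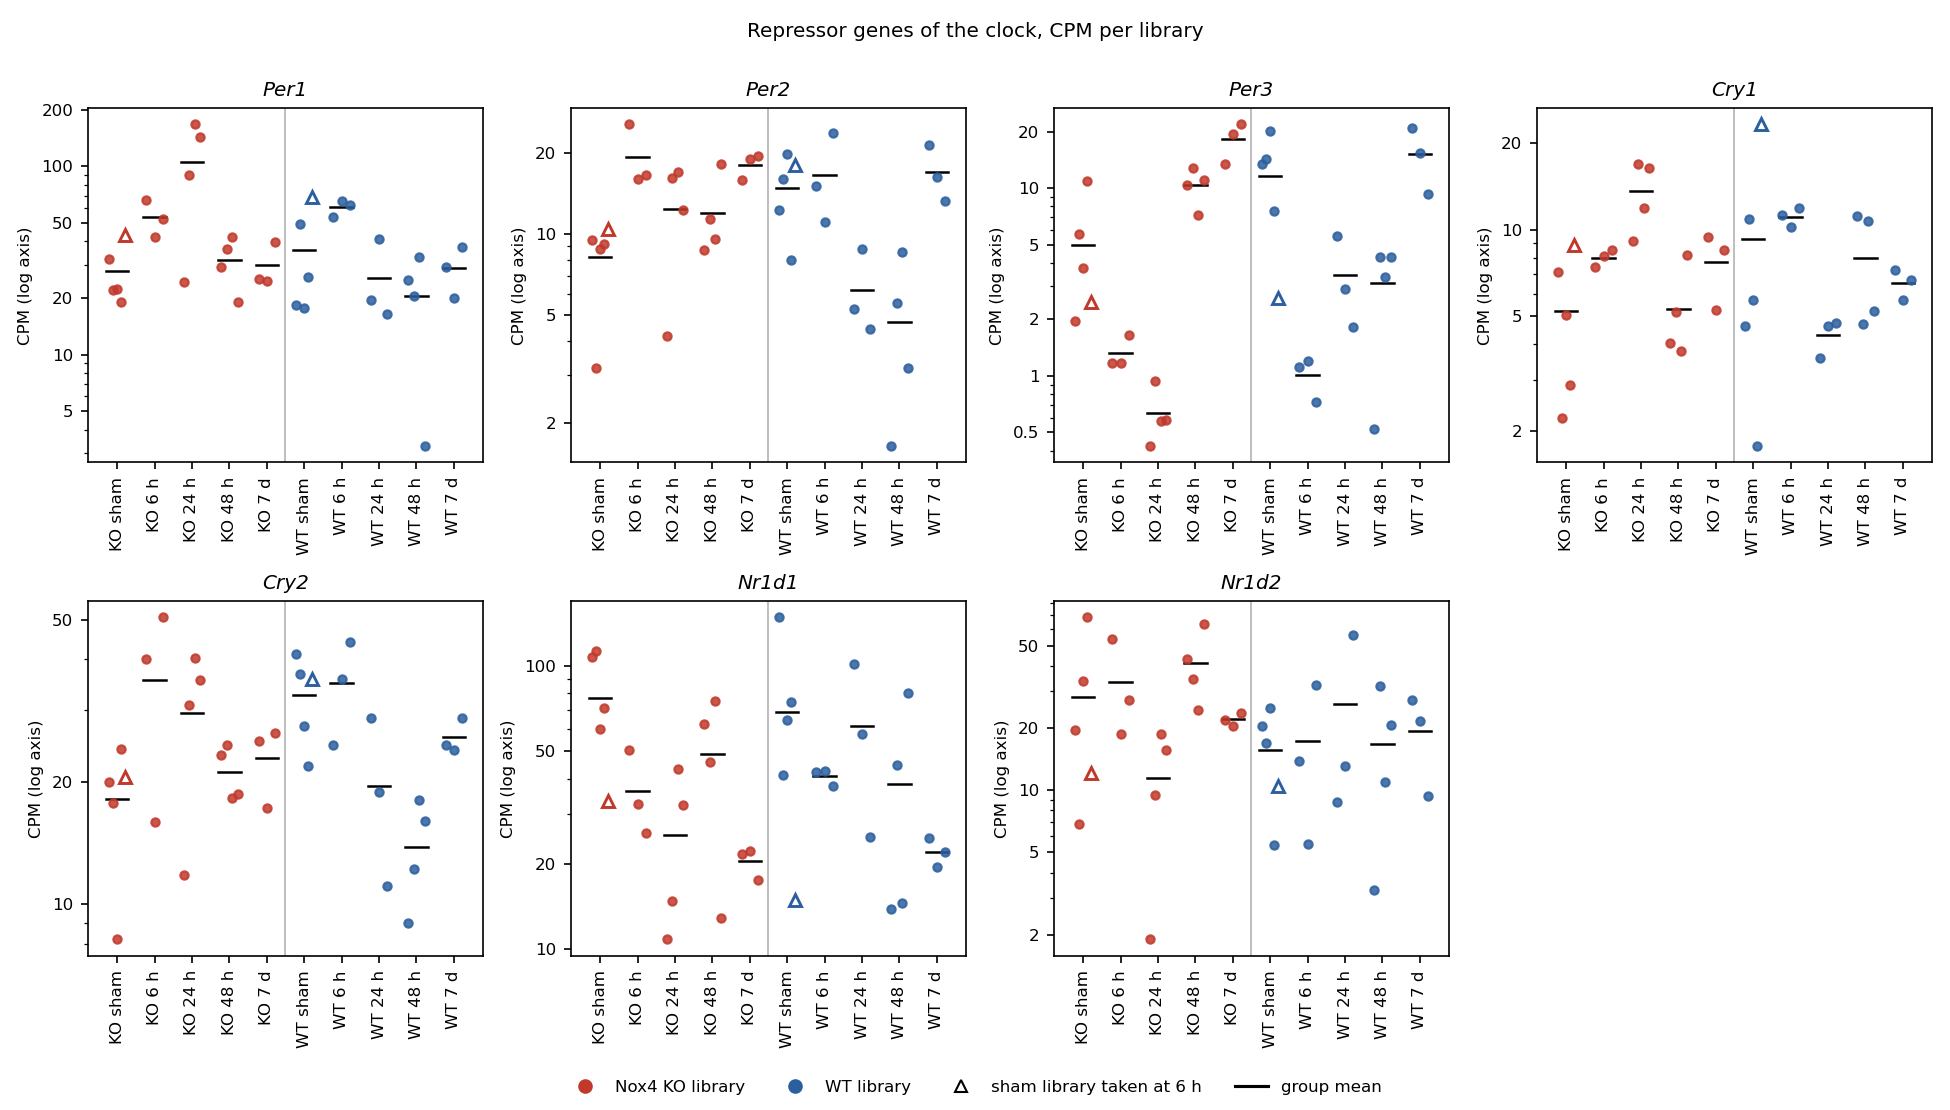
CPM of the Per, Cry and Nr1d genes in each library (log axes), by genotype and time after the operation. Circles are livers, triangles the 6 h sham livers, and lines the group means. Per3 at 24 h lies at 0.422 to 0.945 CPM in KO livers and 1.83 to 5.55 CPM in WT livers.

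Counted over the 10 genes, the KO to WT comparison called 4 genes at 24 h, Npas2, Per1 and Cry1 higher and Per3 lower in the KO, where 18.6% of all genes tested were called (11.1% higher, 7.5% lower). At 48 h it called 2, Arntl and Npas2, both lower in the KO, where 0.341% of all genes were called (0.18% lower). In sham livers, at 6 h and at 7 d edgeR called 0 of the 10, against 0.276%, 0.116% and 0.045% of all genes. At an unadjusted p under 0.05 there were 5 in sham livers, 0 at 6 h and 0 at 7 d, against 1999, 1648 and 203 of all 15564 genes tested. DESeq2 called 1, 0 and 0 of the 10, and 273, 127 and 30 of the 26837 genes in its fit. Of the 10, the gene DESeq2 called in sham livers was Clock, at 1.49 (adjusted p = 0.0244). Averaged over the 5 stages edgeR and DESeq2 called 0, against 2.72% of all genes called by edgeR. At an unadjusted p under 0.05 there were 0 of the 10 and 3161 of all 15564 genes tested. The median log2 difference over the 10 genes was 0.83 at 24 h and 0.38 at 48 h, and that over all genes tested was -0.03 and -0.01.

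By the ranges of CPM alone, KO and WT livers did not overlap for 5 of the 10 genes at 48 h (Arntl and Npas2 lower in the KO, Per2, Per3 and Cry2 higher), against 8.13% of all genes. They did not overlap for 3 of the 10 at 24 h, against 11.2%, for 2 at 6 h, against 18.5%, for 0 at 7 d, against 12.9%, and for 0 in sham livers, against 2.06%.

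The 24 h count rested on few livers. It was 0 without WT 24 h replicate 1, 1 without KO 24 h replicate 4, 1 without WT 24 h replicate 3 and 2 without WT 24 h replicate 2. It was 4 without KO 24 h replicate 1, which lost Npas2 and gained Per2 (1.35, adjusted p = 0.0145). The 48 h count was 0 without KO replicate 1, 2 or 3 and 1 without KO replicate 4 or WT replicate 1 or 3.

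After hepatectomy in the KO, 5 genes passed at 24 h against sham, Arntl, Per1 and Cry1 higher and Nr1d1 and Per3 lower, where 28% of all genes tested were called (15.9% higher, 12% lower). The count was 3 without KO sham replicate 4 or KO 24 h replicate 4, and 4 without KO 24 h replicate 1. In WT livers 1 of the 10 passed at 6 h (Per3 lower, 7.86% of all genes called, 3.7% lower) and 1 at 24 h (Clock higher, 0.925% of all genes called, 0.366% higher). At 6 h the count was 2 without WT sham replicate 5, where Arntl also passed at 2.13 (adjusted p = 0.0162), and 0 without WT 6 h replicate 3. At 48 h 6 of the 10 passed in WT livers, where 8.29% of all genes were called (4.68% higher, 3.62% lower). Arntl, Clock and Npas2 were higher, and Per2, Cry2 and Per3 were lower. The 3 that rose encode the activator pair, and the 3 that fell belong to the Per and Cry families. In a fit of the compared groups alone 4 of the 6 passed, without Npas2 and Per3.

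For the other hepatectomy comparisons edgeR called 0 of the 10. In the KO, 6.62% of all genes passed at 6 h, 3% at 48 h and 0% at 7 d, and in the WT 0% passed at 7 d. At an unadjusted p under 0.05 there were 3, 3 and 6 of the 10 in the KO at 6 h, 48 h and 7 d and 2 in the WT at 7 d. Of all 15564 genes tested, 3404, 2072, 497 and 950 were under it, in that order. DESeq2 called 2 in the KO at 6 h, 1 at 48 h and 0 at 7 d, and 0 in the WT at 7 d. Of the 26837 genes in its fit it called 1602, 698, 8 and 25 there. Its calls among the 10 were Per2 and Per3 at 6 h and Arntl at 48 h. By edgeR the KO count at 6 h was 2 without KO sham replicate 5 or KO 6 h replicate 2, and that at 48 h was 1 without KO sham replicate 4 or KO 48 h replicate 4. None of the 10 genes passed for males against females (adjusted p under 0.05 in 0 of 10).

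By ranges of CPM alone, KO livers at 7 d did not overlap KO sham livers for 5 of the 10 genes (Arntl, Clock and Nr1d1 lower, Per2 and Per3 higher), against 4.52% of all genes. The KO count was 2 at 6 h (15.9% of all genes), 3 at 24 h (9.29%) and 1 at 48 h (8.04%). In WT livers against WT sham it was 1 at 6 h (17.1%), 0 at 24 h (6.17%), 3 at 48 h (8.57%) and 0 at 7 d (4.2%).

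**Figure D3:**
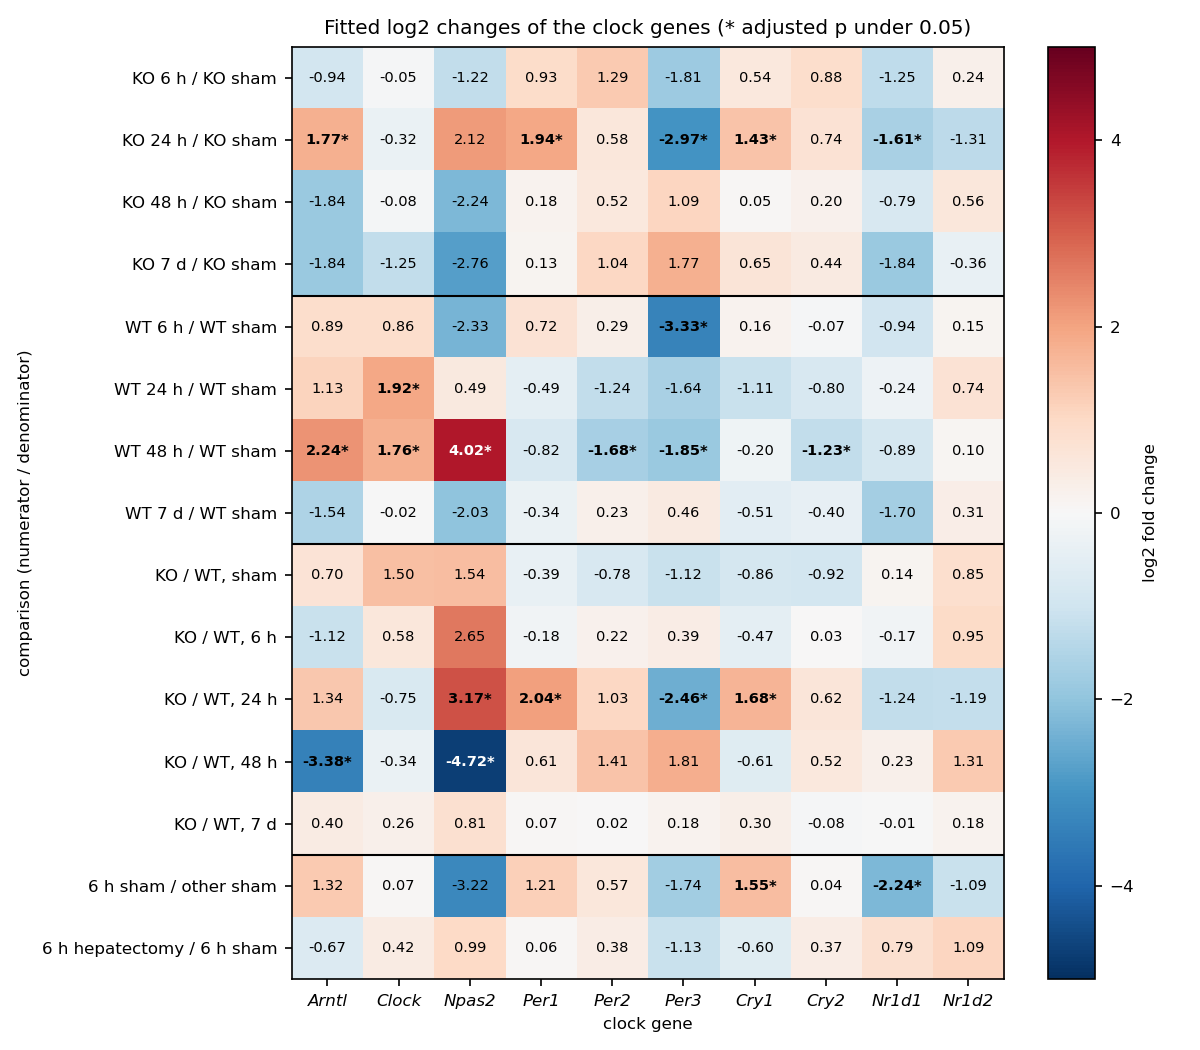
Fitted log2 fold changes of the 10 genes in each comparison (rows, first group over second), with an asterisk where the adjusted p is under 0.05. Arntl and Npas2 are positive in the KO at 24 h and in the WT at 48 h, and at -3.38 and -4.72 between KO and WT at 48 h.

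The test of whether the 24 h response differed between the genotypes, (KO 24 h minus KO sham) minus (WT 24 h minus WT sham), called 5 of the 10 genes, with 8.47% of all genes called (5.52% positive, 2.96% negative). Cry1 differed by 2.54 (SE 0.676, adjusted p = 0.0218), Per1 by 2.43 (SE 0.731, adjusted p = 0.0371), Per2 by 1.81 (SE 0.586, adjusted p = 0.0494), Cry2 by 1.54 (SE 0.480, adjusted p = 0.0430) and Clock by -2.24 (SE 0.645, adjusted p = 0.0306). The change was thus more positive for the first 4 and more negative for Clock in the KO response than in the WT one. Arntl, at 0.64 (SE 0.877), and Npas2, at 1.63 (SE 1.36), did not pass. The count was 0 without WT 24 h replicate 3, where no gene tested passed, and 0 without KO 24 h replicate 4. Without WT 24 h replicate 3 the Clock difference was -1.17 (adjusted p = 0.240). The count was 1 to 3 without WT sham replicate 1, 2, 3 or 5, WT 24 h replicate 1, KO sham replicate 1, 2, 3 or 4, or KO 24 h replicate 2 or 3. It was 5 without KO 24 h replicate 1, 2 with both 6 h sham livers left out, and 0 when the compared groups alone were fitted.

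At 48 h the same test gave -4.08 for Arntl (SE 0.877), -6.26 for Npas2 (SE 1.34), 2.93 for Per3 (SE 0.698) and 2.20 for Per2 (SE 0.555). None of the 10 passed by edgeR, where 0% of all genes did. At an unadjusted p under 0.05 there were 6 of the 10 and 1198 of all 15564 genes tested. DESeq2 called Arntl, Npas2, Per3 and Per2, where it called 49 of the 26837 genes in its fit. Without the 6 h sham livers edgeR called Arntl (-5.23, adjusted p = 0.00506) and Npas2 (-6.33, adjusted p = 0.0412). Without WT sham replicate 5 alone it called Arntl and Per3. At 6 h and at 7 d edgeR and DESeq2 called 0 of the 10, with 0 at an unadjusted p under 0.05 and 0% of all genes called by edgeR. At that unadjusted p there were 715 of all genes tested at 6 h and 347 at 7 d.

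The 6 h sham livers, 1 per genotype and both male, were compared with the other sham livers. In a fit that gave them a group of their own, 2 of the 10 genes passed against the 8 other sham livers, averaged over genotypes, where 5.49% of all genes were called (3.73% higher, 1.76% lower). Cry1 was higher at 6 h, with 8.82 CPM in the KO and 23.3 CPM in the WT, against 2.21 to 7.14 CPM in other KO and 1.76 to 10.9 CPM in other WT sham livers (log2 fold change 1.55, SE 0.422, adjusted p = 0.0266). Nr1d1 was lower, with 33.4 CPM in the KO and 14.8 CPM in the WT, against 59.9 to 113 CPM and 41.3 to 148 CPM (log2 fold change -2.24, SE 0.661, adjusted p = 0.0421). In each genotype the 6 h sham liver lay outside the range of the others for both genes. Over the genotypes together, the 6 h sham livers did not overlap the 8 others for 2 of the 10 genes, Npas2 and Nr1d1, against 22.8% of all genes. Both calls were lost without the KO or the WT 6 h sham liver and without WT sham replicate 1. Leaving out the 6 h sham liver of a genotype takes that genotype out of the average. Such a fit compares 1 liver with the other sham livers of the remaining genotype, so it is a different test from the main one. Over all fits with 1 library left out, the change ran from 1.05 to 2.05 for Cry1 and from -2.79 to -1.69 for Nr1d1. Cry1 also lost its call without KO sham replicate 4, and Nr1d1 without WT sham replicate 4 or KO sham replicate 1 or 2. With 1 library per genotype the spread of a 6 h sham group is taken from the other groups. Among the genes that did not pass, Per3 was at 2.47 and 2.61 CPM in the 6 h sham livers and 1.96 to 20.1 CPM in the others (-1.74, SE 0.605, adjusted p = 0.0922 by edgeR and 0.0233 by DESeq2).

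Set against these time-matched sham livers, the 6 livers taken 6 h after hepatectomy showed 0 of the 10 genes called by edgeR and DESeq2. Of all genes edgeR called 0.141%. At an unadjusted p under 0.05 there were 1736 of all 15564 genes tested, and 1 of the 10. That gene was Per3, at 0.731 to 1.65 CPM in the 6 hepatectomy livers and 2.47 and 2.61 CPM in the 6 h sham livers, without overlap (log2 fold change -1.13, SE 0.537, adjusted p = 0.427). It was 1 of the 10 genes without overlap, against 13% of all genes. Per1 differed by 0.06 (SE 0.557), Cry1 by -0.60 (SE 0.434) and Nr1d1 by 0.79 (SE 0.597). With 2 sham livers at 6 h the test could not show small differences, and these values do not show that the groups are alike.

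The balance between the arms of the loop was followed as the log2 ratio of Arntl to Nr1d1 counts within a library, with 1 count added to each, which does not depend on library scaling. Only differences between libraries in this ratio are read, since the genes differ in length. At 24 h it was 0.10, -1.58, -2.69 and -1.58 in KO livers and -5.23, -4.12 and -2.26 in WT livers. At 48 h it was -7.08, -6.52, -6.63 and -3.24 in KO livers and -0.24, -2.94, -1.37 and -3.25 in WT livers. KO livers lay mostly above WT livers at 24 h and, except replicate 4 beside WT replicate 4, below them at 48 h. The mean was -1.44 ± 1.15 in the KO and -3.87 ± 1.50 in the WT at 24 h (SD, n = 4 and 3), a difference of 2.43. At 48 h it was -5.87 ± 1.77 in the KO and -1.95 ± 1.40 in the WT (SD, n = 4 each), a difference of -3.92.

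By two-sided exact permutation tests, adjusted over the 5 stages, neither difference in the ratio passed. At every stage after hepatectomy the smallest possible p was too large to pass after this adjustment, even with the groups fully apart. These tests therefore could not decide whether the ratio differed there. The p was 0.114 at 24 h (smallest possible 0.0571) and 0.0571 at 48 h (smallest possible 0.0286), and both had an adjusted p of 0.286. In sham livers the difference was 0.83 (exact permutation p = 0.516), at 6 h -1.77 (exact permutation p = 0.4, smallest possible 0.1) and at 7 d 0.49 (exact permutation p = 0.7). The ratio in the 6 h sham livers was -3.74 in the KO and -1.37 in the WT, above all 8 other sham livers, which lay at -7.13 to -4.31.

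**Figure D4:**
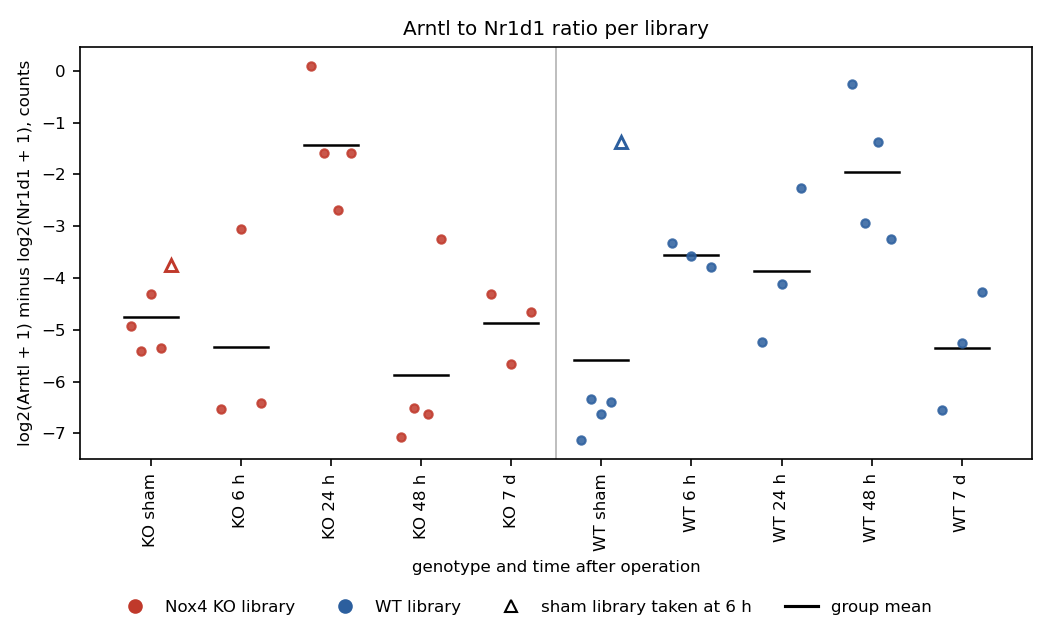
Log2 ratio of Arntl to Nr1d1 counts (1 added to each) in every library, by genotype and time after the operation. Circles are livers, triangles the 6 h sham livers, and lines the group means, at -1.44 in the KO and -3.87 in the WT at 24 h and at -5.87 in the KO and -1.95 in the WT at 48 h.

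Libraries were also compared by their 10 clock genes together, as the root mean square difference in log2 CPM. KO 24 h replicate 1 and WT 48 h replicate 1 were each other's nearest library, 0.56 apart, and WT 48 h replicate 3 was nearest to KO 24 h replicate 2 (0.94). KO 48 h replicate 2 and WT sham replicate 3 were each other's nearest library (0.55). KO 24 h replicates 2, 3 and 4 each had another KO 24 h liver as the nearest, WT 48 h replicate 2 was nearest to KO sham replicate 3 (0.66), and WT 48 h replicate 4 to WT 48 h replicate 2 (1.10). The 6 livers at 7 d each had another 7 d liver as the nearest, at 0.28 to 0.58.

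Across the 37 libraries the log2 CPM values of the 10 genes were correlated in 45 pairs. By Pearson's r, 23 pairs had an adjusted permutation p under 0.05, 10 of them positive and 13 negative, and 18 of these also passed by Spearman's rho. The strongest was Arntl with Per3, at r = -0.72 and rho = -0.73 (adjusted permutation p = 0.00045 for both). The permutation p before adjustment was 1e-05 for both, the smallest that 100000 resamples can give. Without the 2 libraries farthest from the median of Arntl, r was -0.78. Arntl rose with Npas2 (r = 0.62, rho = 0.60, adjusted permutation p = 0.00045 and 0.00090, r = 0.63 without the 2 farthest libraries), and Cry2 with Per2 (r = 0.66, rho = 0.62, adjusted permutation p = 0.00045 and 0.00067, r = 0.63 without them). Npas2 and Per2 went against each other (r = -0.68, rho = -0.60, adjusted permutation p = 0.00045 and 0.00157, r = -0.53 without them), as did Cry1 and Nr1d1 (r = -0.63, rho = -0.66, adjusted permutation p = 0.00045 and 0.00067, r = -0.58 without them).

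The genotype and time groups contribute to these values. After centring within groups and by sex, all 23 pairs kept their sign, with r = -0.47 for Arntl and Per3, 0.35 for Arntl and Npas2, and -0.49 for Cry1 and Nr1d1. Some kept little else, with centred r of 0.03 for Clock and Npas2 and -0.08 for Clock and Per3. The centred values were not tested. Without the 8 libraries taken at 6 h, 19 pairs passed over the other 29, and 17 of these were among the 23. Arntl and Per3 then had r = -0.89. Arntl and Nr1d1, which encode proteins on opposite arms of the loop, did not pass (r = -0.13, rho = -0.16, adjusted permutation p = 0.54 and 0.47).

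**Figure D5:**
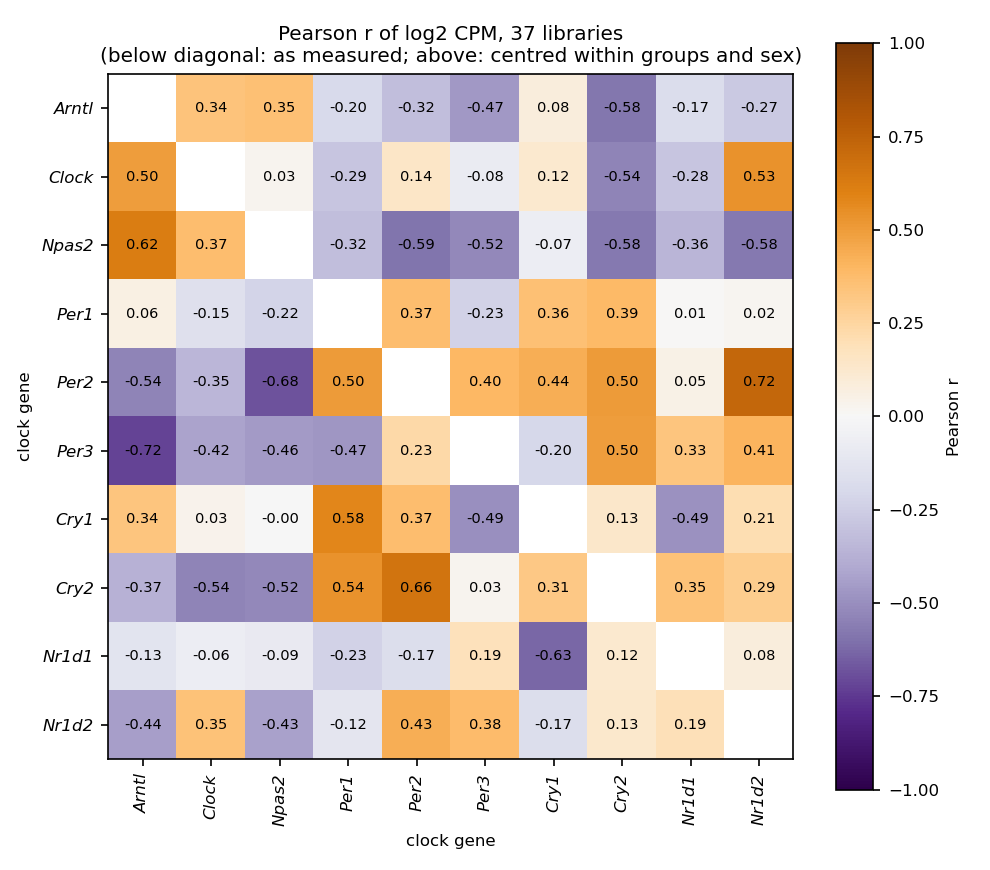
Pearson's r between log2 CPM of each pair of clock genes over the 37 libraries, as measured below the diagonal and after centring within groups and sex above it. Arntl and Per3 have r = -0.72 as measured and -0.47 after centring.

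The genes outside the 10 most like a clock gene over the 37 libraries were found among 8536 genes with a mean of at least 5 CPM. Those most like Arntl were Leo1 (r = 0.91), which encodes a subunit of the PAF1 transcription elongation complex, Pgm3 (0.81), Ptpn9 (0.78), Clpx (0.78) and Asap2 (0.77). Those most like Per1 were Efhd2 (0.85), Mfsd2a (0.84), a lysophospholipid transporter, Gde1 (0.83), Ist1 (0.83) and Nfkbib (0.81). For Nr1d1 the likeness was weaker, led by Dlat (0.57), Tcf7l1 (0.57), Phlpp1 (0.56), Aqp8 (0.55) and Ceacam1 (0.54). The libraries share groups and depth, so these values describe the series.

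Around the core genes, a list of 20 clock-associated genes was counted in the same tests. It holds output factors (Dbp, Tef, Hlf, Nfil3), further regulators of the loop, and kinases and ubiquitin ligases that act on its proteins. Dbp, the D-box activator that is a direct target of the activator pair, had 1.76, 2.72, 9.10 and 2.80 CPM in KO livers at 24 h and 113, 46.4 and 8.60 CPM in WT livers. At 48 h Dbp was at 138, 181, 123 and 39.2 CPM in KO livers and 1.47, 17.5, 3.09 and 39.6 CPM in WT livers. KO replicate 4 and WT replicate 4 had nearly the same level at 48 h, as they did in the Arntl to Nr1d1 ratio. Sham livers held 19.3 to 105 CPM of Dbp in the KO and 16.2 to 224 CPM in the WT, whose lowest value was the 6 h sham liver.

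At 24 h the KO to WT comparison called 6 of the 20, with 18.6% of all genes called. Dbp, the ubiquitin protease gene Usp2 and Tef were lower in the KO (-3.78, -1.82 and -1.21), and Nampt, which encodes an NAD synthesis enzyme, and the kinase genes Csnk1e and Gsk3b were higher (2.07, 1.39 and 1.11). Against KO sham at 24 h, where 28% of all genes were called, 4 were lower (Dbp -3.91, Usp2 -2.07, Tef -1.35, Hlf -0.90) and 4 higher (Csnk1e 1.37, Gsk3b 0.93, Fbxw11 0.88, Csnk1d 0.46). Fbxw11 encodes a ubiquitin ligase subunit that targets PER proteins, and Csnk1d and Csnk1e encode their main kinases. At 48 h the KO to WT comparison called Usp2 alone, higher in the KO by 2.53, with 0.341% of all genes called. The median over the 20 genes was 0.32 at 24 h and 0.13 at 48 h.

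In WT livers 7 of the 20 were lower and 0 higher at 6 h, where 3.7% of all genes were called lower (among them Dbp -3.41, Usp2 -2.27, Wee1 -2.09, Fbxl21 -1.65, Hlf -1.39 and Btrc -0.97). At 48 h, where 3.62% of all genes were called lower and 4.68% higher, 5 were lower (among them Dbp -3.53, Usp2 -2.53, Bhlhe41 -2.22 and Tef -1.47) and Timeless was higher (1.40). In KO livers Hlf and Btrc were lower at 6 h (-0.98 and -1.02) and Csnk1e higher (0.94), with 6.62% of all genes called, and at 48 h Timeless and the cell cycle kinase gene Wee1 were higher (2.33 and 2.22), with 3% of all genes called. At 24 h in the WT, at 7 d in both genotypes, and between KO and WT in sham livers, at 6 h, at 7 d and on average, edgeR called 0 of the 20. Between 0 and 6 of the 20 had an unadjusted p under 0.05 there, against 203 to 3161 of all 15564 genes tested. DESeq2 called 1 at 24 h in the WT and 1 in the KO to WT average over the stages, where it called 487 and 877 of the 26837 genes in its fit. It called 0 of the 20 in the others. Of the 37 calls made for these genes, 12 were kept whichever library was left out, and 7 were also kept under every other setting. Among those 7 were Dbp, Usp2, Tef and Csnk1e in the KO at 24 h against sham, Timeless in the KO at 48 h, and Usp2 in the WT at 48 h. DESeq2 called 4 of the 20 for KO against WT at 48 h, all higher in the KO, where it called 226 of the 26837 genes in its fit. Usp2 at 48 h between KO and WT lost its edgeR call without any 1 of 7 of the 8 livers compared (adjusted p up to 0.169). The 24 h difference in response was called for 2 of the 20, with 8.47% of all genes called. Csnk1e (1.34) was among them, and its call was lost without any 1 of 7 of the 17 livers compared and in a fit of the compared groups alone (adjusted p up to 0.124 over these). Against other sham livers, the 6 h sham livers had higher Nfil3, the D-box repressor (2.26), and lower Fbxl21 (-1.78), with 5.49% of all genes called.

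Markers of other liver cells moved with some of these groups. In KO livers at 24 h all 5 sinusoidal endothelial markers, 5 of 6 Kupffer cell markers and 4 of 5 T and NK cell markers were lower than in KO sham, where 12% of all genes were called lower, and 1 of 4 cholangiocyte markers was higher, where 15.9% of all genes were. Between KO and WT livers at 24 h, all 5 sinusoidal, 3 of 6 Kupffer and 1 of 5 stellate cell markers were lower in the KO, where 7.5% of all genes were called lower. In the same comparison 2 of 4 cholangiocyte and 1 of 6 hepatocyte markers were higher, where 11.1% of all genes were. Between KO and WT livers at 48 h, 1 of 5 T and NK cell markers was higher in the KO, where 0.341% of all genes were called in either direction. None of the other marker lists held a called gene at 48 h between the genotypes. The summed sinusoidal markers were 23.7 to 69.5 CPM in KO livers at 24 h, 90.6 to 194 CPM in WT livers at 24 h and 89.5 to 146 CPM in KO sham livers. Summed Kupffer markers were 46.6 to 235 CPM in KO livers at 24 h, 154 to 370 CPM in WT livers at 24 h and 183 to 282 CPM in KO sham livers. KO 24 h replicate 1 held the upper value of each, 69.5 CPM sinusoidal and 235 CPM Kupffer, the latter within the KO sham range. Replicates 2, 3 and 4 had 32.6, 23.7 and 27.1 CPM of sinusoidal markers and 46.6, 55.8 and 91.6 CPM of Kupffer markers. In WT livers at 48 h 3 of 6 hepatocyte, 2 of 5 sinusoidal, 1 of 5 stellate and 1 of 5 T and NK cell markers were lower than in WT sham, where 3.62% of all genes were called lower. In the same comparison 1 of 6 Kupffer markers was higher, where 4.68% of all genes were. The WT livers at 48 h had hepatocyte sums of 81041 to 114838 CPM against 83397 to 139895 CPM in WT sham. In WT livers at 6 h 3 of 5 neutrophil and 1 of 4 cholangiocyte markers were higher, where 7.86% of all genes were called in either direction, with neutrophil sums of 28.2 to 67.3 CPM against 2.56 to 11.2 CPM in WT sham. No defining marker was at 0 in every library, and Cxcr2, Cd3g, Nkg7 and Gzmb were at 0 in at least 1. The part of these cells in the clock values was not tested, and in whole liver fewer cells of a type and less RNA per cell cannot be told apart.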

How the data were processed

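RNA from 37 mouse livers was sequenced with the KAPA Stranded mRNA-Seq kit, per the labels' protocols. The authors deposited 1 table of expected counts per gene, all whole numbers, and the submitters' processing notes name STAR 2.5.3a, RSEM 1.3.0 and GRCm38. The strand setting and annotation release are not given in the sources used here.

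Groups came from the labels (genotype, operation, time). Expected counts were filtered with filterByExpr, scaled by TMM and tested with edgeR 4.0.16 (robust quasi-likelihood, 10 groups plus sex, R 4.3.3). Contrasts of the 6 h sham livers used 12 groups. Adjusted p-values are Benjamini-Hochberg over all genes tested, and SE is the log2 fold change divided by the square root of F. Log2 CPM had a prior count of 2. Alternatives were DESeq2 1.42.0, RLE scaling, no filter, no sex term, no 6 h sham livers, the compared groups alone and each library left out. Gene positions are from GENCODE M21. The biological coefficient of variation was 0.390, and in the closest pair of replicates the chi-square per degree of freedom was 32.07, so none was counted as a duplicate.

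The test was checked on simulated counts with known changes, for KO against WT at 24 h and 48 h and for 6 h sham against other sham livers. In that order, 25%, 30% and 19% of 100 genes changed 2-fold were called. Of 100 genes changed 4-fold, 79%, 84% and 79% were called, so many 2-fold changes would be missed. The unchanged genes called numbered 7, 3 and 5. The members, gene lists and tests were chosen with earlier results of these data known. Named were all 10 members, genes of the clock-associated list that passed, the 5 genes most like Arntl, Nr1d1 and Per1 by Pearson's r at a mean of at least 5 CPM, and Nox4 as a check of the labels. 1 gene of the clock-associated list is counted but not reported here by name. Dbp was chosen for its per-library levels after its values were seen.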

Additional observations from a re-analysis of the deposited data

Results flagged for a closer look

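In groups of 4 or 5 libraries, a sample was singled out where its gap to the nearest other sample, as a share of the whole range of the group, was above Dixon's critical value. This was so in 8 of 60 cases, each a gene or the ratio in a group, where chance gives about 1 in 20 for a single case. The cases share libraries, the ratio reuses Arntl and Nr1d1, and Dbp was chosen after its values were seen. The sham groups also mix sampling times. The number of cases is therefore not read as an excess over chance. On the log2 CPM scale the samples singled out were Clock in KO 24 h replicate 3, the lowest of its group (0.844), Npas2 in KO 24 h replicate 1, the highest (0.842), Cry2 in KO sham replicate 3, the lowest (0.717), Per2 in KO sham replicate 2, the lowest (0.856), Per3 in WT 48 h replicate 1, the lowest (0.880), and Dbp in WT sham replicate 5, the lowest (0.893). For the log2 ratio of Arntl to Nr1d1 they were KO 48 h replicate 4, the highest of its group (0.854), and WT sham replicate 5, the highest (0.863), which is the WT liver sampled 6 h after a sham operation.

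The response to hepatectomy at 24 h differed between KO and WT livers by the test of the difference itself for Cry1 (2.54), Per1 (2.43), Per2 (1.81), Cry2 (1.54) and Clock (-2.24) among the core genes, and for Csnk1e (1.34) among the clock-associated genes. The values are log2 fold changes of the KO response minus the WT response. All of these calls were lost without WT 24 h replicate 3 or without KO 24 h replicate 4. The Clock difference was -1.17 without WT 24 h replicate 3 (edgeR adjusted p = 0.240).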

How the results depend on the processing

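No paired analysis was possible because the labels give no replicate numbers. Counts are of the 10 core genes called. Against the reported counts, DESeq2 called 1 for KO against WT sham, 4 for KO against WT at 48 h, 2 for KO 6 h, 6 for KO 24 h and 1 for KO 48 h against sham, 4 for the difference in response at 48 h and 3 for the 6 h sham livers. Of the 26837 genes in its fit it called 273, 226, 1602, 4876, 698, 49 and 1287 in these comparisons, in that order. By edgeR 43, 53, 1030, 4351, 467, 0 and 855 of 15564 genes were called. Without the count filter there were 3 for KO against WT at 24 h and 1 at 48 h, 3 for KO 24 h and 0 for WT 24 h against sham, 2 for the difference in response at 24 h and 1 for the 6 h sham livers. Without the sex term there were 1 for KO 6 h against sham, 3 for the difference at 24 h and 1 for the 6 h sham livers. Without the 6 h sham livers there were 2 each for KO 6 h and WT 6 h against sham and for the differences at 24 h and 48 h. In the compared groups alone there were 0 for KO against WT at 24 h and 1 at 48 h, 3 for KO 24 h, 1 for KO 48 h, 0 for WT 6 h, 0 for WT 24 h and 4 for WT 48 h against sham, 0 for the difference at 24 h and 1 for the 6 h sham livers.

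With 1 library left out, the counts ran from 0 to 1 for KO against WT at 6 h, 0 to 4 at 24 h and 0 to 2 at 48 h. Against sham they ran from 0 to 2 for KO 6 h, 3 to 6 for KO 24 h, 0 to 1 for KO 48 h, 0 to 2 for WT 6 h, 0 to 1 for WT 24 h and 4 to 6 for WT 48 h. They ran from 0 to 5 for the difference at 24 h, 0 to 2 at 48 h, and 0 to 2 for the 6 h sham livers. Except for DESeq2, the share of all genes called is not given beside the counts of this section. Losses and gains in them are therefore not read as particular to the core genes.

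Of 26 core gene calls, 5 were kept whichever library was left out and 7 under every other setting. The 4 in both were Clock and Per2 in the WT at 48 h and Per1 and Per3 in the KO at 24 h, each against sham. DESeq2 and RLE scaling kept all 26, and no called value changed sign under these settings. The causes of these differences were not tested. A count near 0, as for Npas2, and 3 to 5 livers a group limit the size of change that can be shown.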
